A study of Drosophila melanogaster with 16 samples.

Results

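Pericentromeric genes are those that lie next to the centromeres, at the inner ends of the chromosome arms. In early Drosophila melanogaster embryos they were chosen by dm6 position: genes that start at or above 22000000 on 2L, at or above 23000000 on 3L or at or above 22400000 on X, and genes that end at or below 4400000 on 3R. Of the 17753 genes in the count table, 246 lay within these limits, 5 were left out by name (AGO3 and ribosomal protein genes), and 32 of the other 241 had fewer than 20 counts over the 16 libraries. The remaining 209 genes, 47 on 2L, 50 on 3L, 59 on 3R and 53 on X, are called members here. By type, 140 were protein-coding genes, 44 noncoding RNA genes, 22 pseudogenes, 2 snoRNA genes and 1 an rRNA gene.

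Total RNA was sequenced with a stranded kit from pools of 50 hand-sorted embryos, which were laid over 1 h and aged for 2 h at 25 °C. Embryos homozygous for the Jasper allele Su113 (wm4h;JasperSu113/JasperSu113), for the Jasper allele Su140 (wm4h;JasperSu140/JasperSu140) or for the allele Su(var)3-906, also on wm4h and called Su(var)3-9 here, were set against control embryos (wm4h;+/+). Each genotype was collected at stages 7 to 8 (St7-8) and at nuclear cycle 14 (NC14, stage 5), with 2 libraries per genotype and stage, 8 groups in all. All groups, the control included, carry wm4h, an inversion of the X that moves the eye pigment gene w next to pericentromeric heterochromatin, so the order of genes on X in these flies is not that of dm6. Each allele came as 1 line, so an effect of the allele and an effect of the rest of that line's genome cannot be told apart. The labels do not say that the replicates were separate cultures, so p-values measure the spread between these pools, which may be technical.

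Heterochromatin is the compact, repeat-rich chromatin around centromeres, marked by methylation of lysine 9 of histone H3, and Su(var)3-9 is a methyltransferase that sets this mark. It silences euchromatic genes that are moved next to it, which is why w is variegated in wm4h flies, yet genes that normally lie within it are transcribed there, and for several of them, such as lt, activity is known to depend on the heterochromatic setting. Jasper encodes a protein that works with the JIL-1 kinase, which phosphorylates histone H3 in active chromatin and is known to counter the spread of heterochromatin.

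Libraries held 43466130 to 92790237 counts. Levels are given in CPM, counts per 1000000 after scaling of library sizes by TMM, and 3 counts in a library corresponded to 0.0299 to 0.0573 CPM. This floor and the intervals given below cover counting error only. A gene was called where the adjusted p of edgeR's quasi-likelihood test, Benjamini-Hochberg over all 12398 genes tested, was under 0.05, and fold changes are log2 values ± the standard error of the fit. Of the 209 members, 196 passed the filter on low counts and were tested. Jasper transcripts stood at 98.9 to 161 CPM in the 8 libraries of the Jasper lines, against 125 to 168 CPM in the wm4h libraries. Su(var)3-9 transcripts stood at 114 to 167 CPM in the Su(var)3-9 libraries, against 93.2 to 136 CPM in wm4h libraries. The ranges overlapped, so the RNA levels of these 2 genes did not check the genotype labels. Transcripts of w stood at 1.61 to 10.3 CPM in the 8 libraries of the Jasper lines and at 0.112 to 0.283 CPM in the Su(var)3-9 libraries, against 0.268 to 0.557 CPM in wm4h libraries. Both Jasper lines thus lay above wm4h throughout, while within each stage both Su(var)3-9 libraries lay below both wm4h libraries. Staging was followed with a later-zygotic score, the mean log2 CPM of 22 segmentation, Hox, proneural and neurectoderm genes. Within each line but Su113, both St7-8 values lay above both NC14 values. Over all lines the values of the 2 stages overlapped, so the score is an incomplete guide to stage. The St7-8 values were 4.21 and 2.97 for Su113 pools, 5.2 and 5 for Su140 pools and 5.89 and 5.73 for Su(var)3-9 pools, against 4.97 and 4.28 for wm4h pools. The NC14 values were 3.34 and 3.22 for Su113 pools, 2.32 and 2.53 for Su140 pools and 3.75 and 4.15 for Su(var)3-9 pools, against 4 and 4.06 for wm4h pools.

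Protein-coding members were longer than other genes of the same 4 arms, and more of them held annotated transposon sequence. Their median span was 4581.5 bp, against 2495 bp in the 9079 other protein-coding genes, and 16.429% spanned over 20 kb, against 8.437%. Annotated transposon sequence lay within 52 of the 140 (37.143%), against 635 of the 9079 (6.994%). None was annotated within lt or cta on 2L, of which introns made up 70.732% and 75.180%. How complete the annotation is in these regions was not tested, so genes without annotated transposon sequence are not shown to lack it. The median intron share was 22.567% in protein-coding members, against 16.255% in the other protein-coding genes. By arm it was 16.238% on 2L, 76.935% on 3L, 19.119% on 3R and 21.848% on X, so only 3L stood far apart. The longest member was Myo81F, a myosin gene on 3R with a span of 1965857 bp. Of the 209 members, 35 overlapped another gene on the same strand and 79 one on the opposite strand. How reads of overlapping genes were assigned is not known, so the values of such genes are uncertain.

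Just inside them lay CG31693 (2L, start 22015190), CkIIalpha (3L, start 23097072), CG9855 (3R, end 4397875) and CG14621 (X, start 22444227). Just outside lay CG2528 (2L, start 21974749), nrm (3L, start 22998372), CG14647 (3R, end 4402017) and lncRNA:flam (X, start 21631891). CG14645 was kept with 20 counts, and lncRNA:CR45597 was left out with 19. Of the members at the limits, CG9855 had 6.66 to 40.9 CPM and CG14621 had 37.6 to 125 CPM over the 16 libraries, while CG31693 did not exceed 0.285 CPM.

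Per kb of exon, the median level of all 209 members was 1.26 CPM per kb, against 2.9 CPM per kb in the other genes of the 4 arms, and 57.9% of members had a mean of at least 1 CPM, against 61.6%. Within types the order was the other way. Protein-coding members had a median of 8.32 CPM per kb, against 5.57 CPM per kb in the other protein-coding genes of the 4 arms. The noncoding RNA genes among the members had a median of 0.587 CPM per kb, against 0.18 CPM per kb in other noncoding RNA genes of the arms. ND-MLRQ, named for a subunit of respiratory complex I, led with 394 CPM per kb. It was followed by dunk, a regulator of myosin during cellularization, with 256 CPM per kb, and Tim17b, a subunit of the inner-membrane protein translocase of mitochondria, with 218 CPM per kb. Next came alpha-Cat, which links cadherin junctions to actin, with 146 CPM per kb, and Slmap, a component of the STRIPAK phosphatase complex, with 143 CPM per kb.

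All members together took 0.926 to 1.35% of a library's counts. At NC14 this share was 1.18 and 1.17% in Su113 embryos and 1.35 and 1.34% in Su140 embryos. Su(var)3-9 embryos had 1.07 and 1.01%, against 1.07 and 1.1% in wm4h. At St7-8 it was 1.08 and 1.24% in Su113 embryos and 1.03 and 1.06% in Su140 embryos. Su(var)3-9 embryos had 0.972 and 0.926%, against 1 and 1.16% in wm4h. By this share the libraries of both Jasper lines lay above the wm4h libraries at NC14, and the Su(var)3-9 libraries lay below them at St7-8. The same held for the members' summed CPM, which is scaled by TMM. By that sum the Su(var)3-9 libraries lay below wm4h at NC14 too, with 11200 and 10500 CPM, against 12200 and 12300 CPM. In pools of whole embryos, fewer cells of a type and less RNA per cell cannot be told apart. The 3 genes that added most to the Su140 difference at NC14 were Marf1, with means of 1430 CPM in Su140 and 760 CPM in wm4h, dunk, with 500 CPM in Su140 and 252 CPM in wm4h, and Slmap, with 692 CPM in Su140 and 532 CPM in wm4h. None of these 3 was called there. The 3 that took most away in Su(var)3-9 at St7-8 were again Marf1, Slmap and dunk, and all 3 were called.

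The share of members called was below that of all genes in 8 of the 10 comparisons with the control genotype or between the stages. It was above it in Su140 at St7-8, with 4 calls, and both shares were 0 between the wm4h stages. These differences were not tested. Over the 6 mutant comparisons 52 of the 196 tested members were called at least once (26.5%), against 32.9% of all genes tested. Over the 4 stage comparisons 87 were (44.4%), against 51.5%. Of the 196 tested members, 94 were called in none of the 10 (48.0%), against 43.1% of all genes tested. None was called in the same direction in both Jasper alleles at the same stage. Calls of members were few, 1 in Su113 and 17 in Su140 at NC14, and 3 and 4 at St7-8. The same count over all genes was not made, so this does not show that the alleles differ at these genes. The mutant comparisons of a stage share the 2 wm4h libraries of that stage.

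**Figure D1:**
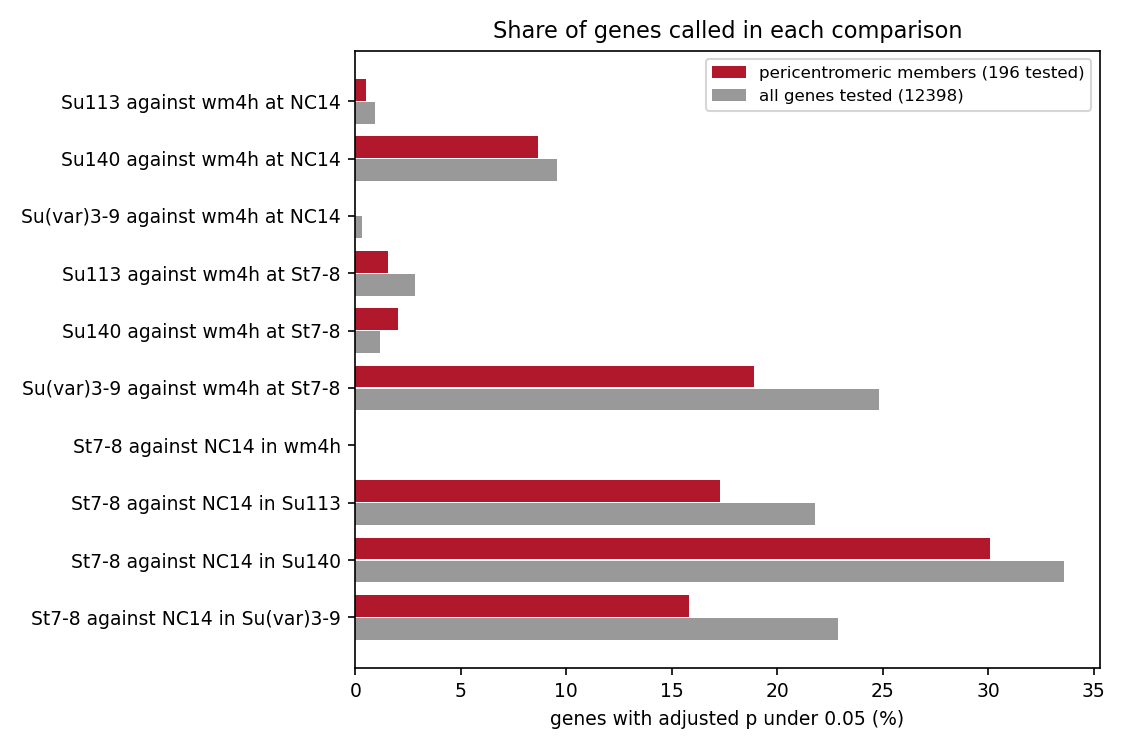
Percent of genes called at an adjusted p under 0.05 in 10 comparisons, for the 196 tested members (red) and all 12398 tested genes (grey). The red bar is longer only in Su140 at St7-8 (2.04% of members, 1.15% of genes), and in wm4h both are 0.

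Of 20 genes that are well known for lying in heterochromatin, 13 met the position and count rule. Parp1, the poly(ADP-ribose) polymerase of Drosophila, had 276 to 538 CPM, and Set1, a methyltransferase for lysine 4 of histone H3, had 221 to 351 CPM. CkIIalpha, the catalytic subunit of casein kinase 2, had 165 to 333 CPM. The cohesin subunit gene vtd had 197 to 350 CPM, and Dbp80, a DEAD-box helicase of messenger RNA export, had 113 to 237 CPM. Snap25, a SNARE of the synapse, had 0.159 to 1.63 CPM, and spok, a cytochrome P450 of ecdysone synthesis, had 0.0244 to 0.801 CPM. Myo81F stood at 0.703 to 2.36 CPM. Per kb of exon, the mean level over the libraries was 123 CPM per kb for Parp1 and 53.6 CPM per kb for Set1, against 0.333 CPM per kb for Snap25 and 0.197 CPM per kb for Myo81F.

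The lt gene, which encodes the Vps41 subunit of the lysosomal tethering complex HOPS, is the textbook case of a gene that needs heterochromatin. At NC14 the lt level was 146 and 143 CPM in Su113 embryos, 152 and 149 CPM in Su140 embryos and 135 and 147 CPM in Su(var)3-9 embryos, against 107 and 129 CPM in wm4h embryos. At St7-8 the lt level was 126 and 114 CPM in Su113 embryos, 132 and 129 CPM in Su140 embryos and 155 and 159 CPM in Su(var)3-9 embryos, against 125 and 147 CPM in wm4h embryos. The mutant libraries lay above the control at NC14 in all 3 lines, and at St7-8 only those of Su(var)3-9 did. It was called in none of the 6 mutant comparisons. Of the 13 genes, 2 were called in a mutant comparison, Parp1 in Su140 at NC14 and cta in Su(var)3-9 at St7-8, where 32.9% of all genes tested were called in at least 1 of the 6. The su(f) gene, which encodes a subunit of the cleavage stimulation factor of messenger RNA 3′ ends, lay at 45.3 to 90.6 CPM and was called in none.

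**Figure D2:**
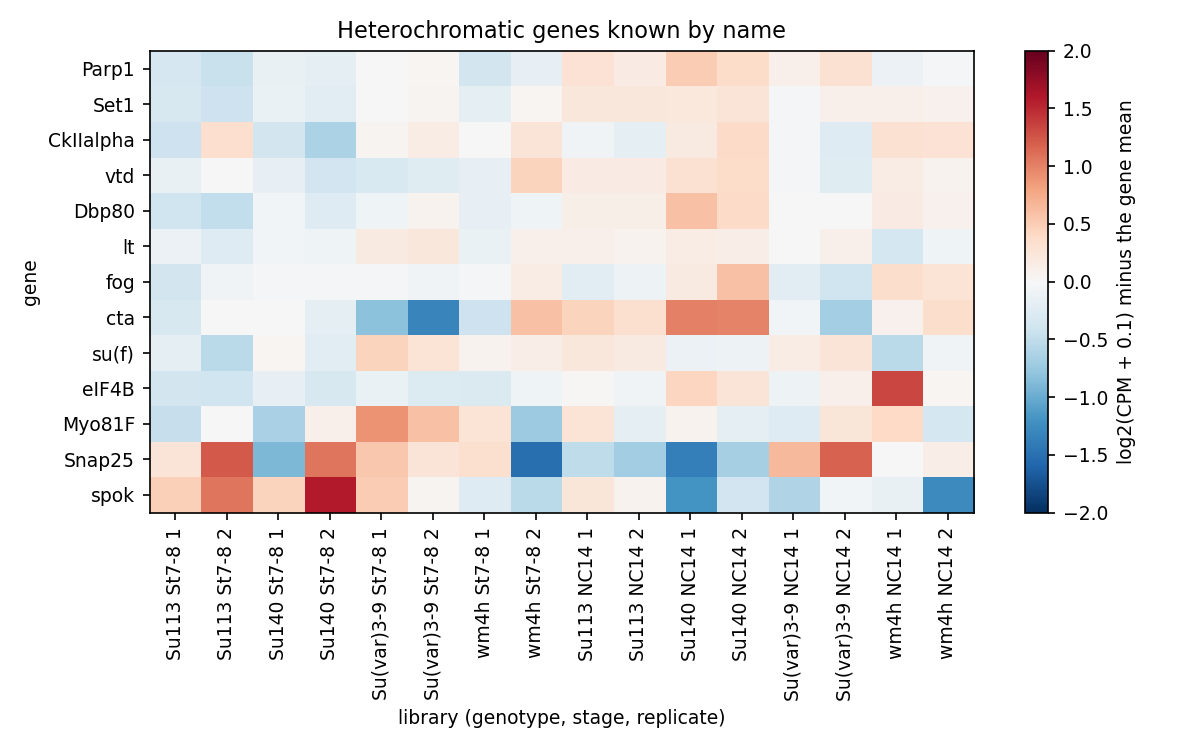
Heat map of log2(CPM + 0.1) minus the gene's mean over 16 libraries (columns, mutants left of wm4h within each stage) for the 13 heterochromatic genes known by name (rows, by mean level). The low cta values in the 2 Su(var)3-9 St7-8 libraries and the strong swings of the rare Snap25 and spok transcripts stand out, while lt is nearly even.

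In Su113 at NC14, 1 of the 196 tested members was called and it was higher, against 0.936% of all genes called, 0.379% higher and 0.557% lower. This was CG40470, a protein-coding gene on 3L (dm6, chr3L:23839860-23986410, minus strand). It had 6.72 and 5.89 CPM in Su113 embryos, against 1.76 and 1.82 CPM in wm4h embryos. Both Su113 libraries lay above both control libraries, as in 27.2% of all genes tested, and the fold change was 1.82 ± 0.31 (adjusted p = 0.018). The call ended when any 1 of the 4 libraries was left out (1.72 to 1.91, adjusted p = 0.0515 to 0.248). With the size factors of DESeq2 in place of TMM, 1 member was called higher and 1 lower. The median over the tested members was 0.03, against -0.00 over all genes tested.

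At St7-8, 3 members rose in Su113 and none fell, with 2.85% of all genes called, 1.85% higher and 1.0% lower. CG40470 was again among them, with 4.83 and 4.5 CPM in Su113, against 1.68 and 1.52 CPM in wm4h (1.54 ± 0.30, adjusted p = 0.0228). CG17698 had 25.5 and 62.6 CPM in Su113, against 16.6 and 11.9 CPM in wm4h (1.63 ± 0.38, adjusted p = 0.0459). Tim23, a subunit of the mitochondrial inner-membrane translocase, had 54.4 and 82.3 CPM in Su113, against 36.8 and 22.6 CPM in wm4h (1.20 ± 0.29, adjusted p = 0.0497). The groups of these 3 genes did not overlap. Over all genes tested, both Su113 libraries lay above both control libraries in 21.8% and below them in 26.6%. The median over the tested members was -0.14, against -0.09 over all genes tested, and with the size factors of DESeq2 these were 0.03 and 0.07. For CG17698 and Tim23 the second Su113 library was the higher one, and that library also had the lowest later-zygotic score of all St7-8 libraries (2.97). The part of this difference in the result was not tested beyond adding the score to the fit, which left 0 members and 0.121% of all genes called. That fit also holds the 8 group means, so the slope of the score rests on differences between replicates alone. Here and below, a call lost with the score does not show what part staging had in it. Of the 3, no call held without wm4h replicate 2 (CG40470 1.47, adjusted p = 0.182).

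In Su140 at NC14, 6 members rose and 11 fell (17 of 196, 8.67%), against 9.56% of all genes tested, 3.02% higher and 6.53% lower. The median over the tested members was -0.14, against -0.03 over all genes tested, and it became 0.05 without wm4h replicate 1. Protein-coding members had a median of 0.11, against 0.00 in the other protein-coding genes of the 4 arms. The 60 members of other types had a median of -0.68, against -0.25 in the arms' other genes of those types. The later-zygotic score of the Su140 pools lay below that of the control pools at this stage (2.32 and 2.53 in Su140, against 4 and 4.06 in wm4h). With the score in the fit, 0 members and 0.0726% of all genes were called, and none of the 17 calls held with each of the 4 libraries left out in turn.

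Of the 11 lower members, 3 were ribosomal RNA pseudogenes at the inner end of X, and they rested on 1 control library. 18SrRNA-Psi:CR41602 had 0.155 and 0.0648 CPM in Su140, against 66.4 and 0.134 CPM in wm4h. 28SrRNA-Psi:CR45855 had 0.186 and 0.0518 CPM in Su140, against 29.3 and 0.0853 CPM in wm4h. Only the first control library was high, and the groups overlapped. The 8 rRNA members together held 9479 counts in wm4h NC14 replicate 1 and 105 to 466 in each of the other 15 libraries. Without that library, the fold change of 18SrRNA-Psi:CR41602 moved from -8.24 to -0.29 and that of 28SrRNA-Psi:CR45855 from -6.95 to 0.46. Without the rRNA genes, 6 members rose and 8 fell.

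The other lower members were led by Gel and CG17167. Gel, which encodes the actin-severing protein gelsolin, had 9.69 and 9.76 CPM in Su140, against 31.7 and 35.2 CPM in wm4h (-1.78 ± 0.25, adjusted p = 0.00278). CG17167 had 0.684 and 0.686 CPM in Su140, against 3.73 and 3.12 CPM in wm4h (-2.32 ± 0.36, adjusted p = 0.00459). For both genes the Su140 libraries were the lowest of all 16. Gel was no longer called without Su140 replicate 2 (-1.79, adjusted p = 0.0505), and CG17167 without either Su140 library (adjusted p = 0.0614 and 0.0603). With the score, Gel stood at -2.24 (adjusted p = 0.0937) and CG17167 at -2.84 (adjusted p = 0.149).

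The lncRNA:CR45180 gene had 0.186 and 0.155 CPM in Su140, against 1.03 and 1.34 CPM in wm4h (-2.79 ± 0.77, adjusted p = 0.042). CG40198, chosen after its values were seen, fell 10.5-fold with a 95% counting interval of 3.81 to 40.5, at no more than 2 counts in a Su140 library.

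The higher members at NC14 in Su140 were CG40472, Parp1, CG34334, Tif-IA, Spf45 and CG40228, the last chosen after its values were seen. CG40472, a short protein-coding gene on 3L (dm6, chr3L:24927130-24927710, plus strand), had 19.4 and 16.5 CPM in Su140, against 9.08 and 8.31 CPM in wm4h (1.04 ± 0.21, adjusted p = 0.0142). Parp1 had 538 and 488 CPM in Su140, against 348 and 368 CPM in wm4h (0.52 ± 0.12, adjusted p = 0.0255). Tif-IA, an initiation factor of RNA polymerase I, had 105 and 138 CPM in Su140, against 57.3 and 60.7 CPM in wm4h (1.04 ± 0.26, adjusted p = 0.0305). In all 3 genes both Su140 libraries lay above both control libraries. Spf45, a splicing factor gene, had 180 and 174 CPM in Su140, against 98.8 and 95.8 CPM in wm4h (0.86 ± 0.23, adjusted p = 0.0364). CG34334 had 4.41 and 6.79 CPM in Su140, against 1.26 and 1.62 CPM in wm4h (1.96 ± 0.47, adjusted p = 0.0268). The groups of Spf45 and CG34334 did not overlap either. Over all genes tested, both Su140 libraries lay above both control libraries in 28.0% and below them in 30.2%. Any 1 of the 4 libraries left out ended the Parp1 call, which then ranged from 0.45 to 0.59 with an adjusted p of 0.0651 to 0.166.

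At St7-8, 1 member rose and 3 fell in Su140 (2.04%), against 1.15% of all genes, 0.379% higher and 0.774% lower. The median over the tested members was -0.15, against -0.05 over all genes tested, and with the size factors of DESeq2 these were -0.01 and 0.08. The tub gene encodes Tube, the adaptor of Toll signalling in dorsoventral patterning. It had 20.6 and 19.1 CPM in Su140, against 54.8 and 67.7 CPM in wm4h (-1.63 ± 0.30, adjusted p = 0.0284). The tio gene encodes Tiptop, a zinc finger paralogue of the trunk selector Teashirt. It had 10.2 and 16.4 CPM in Su140, against 4.43 and 3.42 CPM in wm4h (1.76 ± 0.33, adjusted p = 0.0305). In both genes the 2 groups were apart, and for tub the Su140 libraries were the lowest of all 16. CG41099 had 253 and 221 CPM in Su140, against 363 and 544 CPM in wm4h (-0.93 ± 0.17, adjusted p = 0.0284). CG14646 had 28 and 20.8 CPM in Su140, against 43.2 and 53.2 CPM in wm4h (-0.98 ± 0.21, adjusted p = 0.0483). The Su140 values of these 2 genes were also all below those of wm4h. Over all genes tested this held in 24.5%, and in 18.2% both Su140 libraries lay above. All 4 calls ended without wm4h replicate 2 (tub -1.47, adjusted p = 0.207), and without the second Su140 library (tub -1.58, adjusted p = 0.18).

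**Figure D3:**
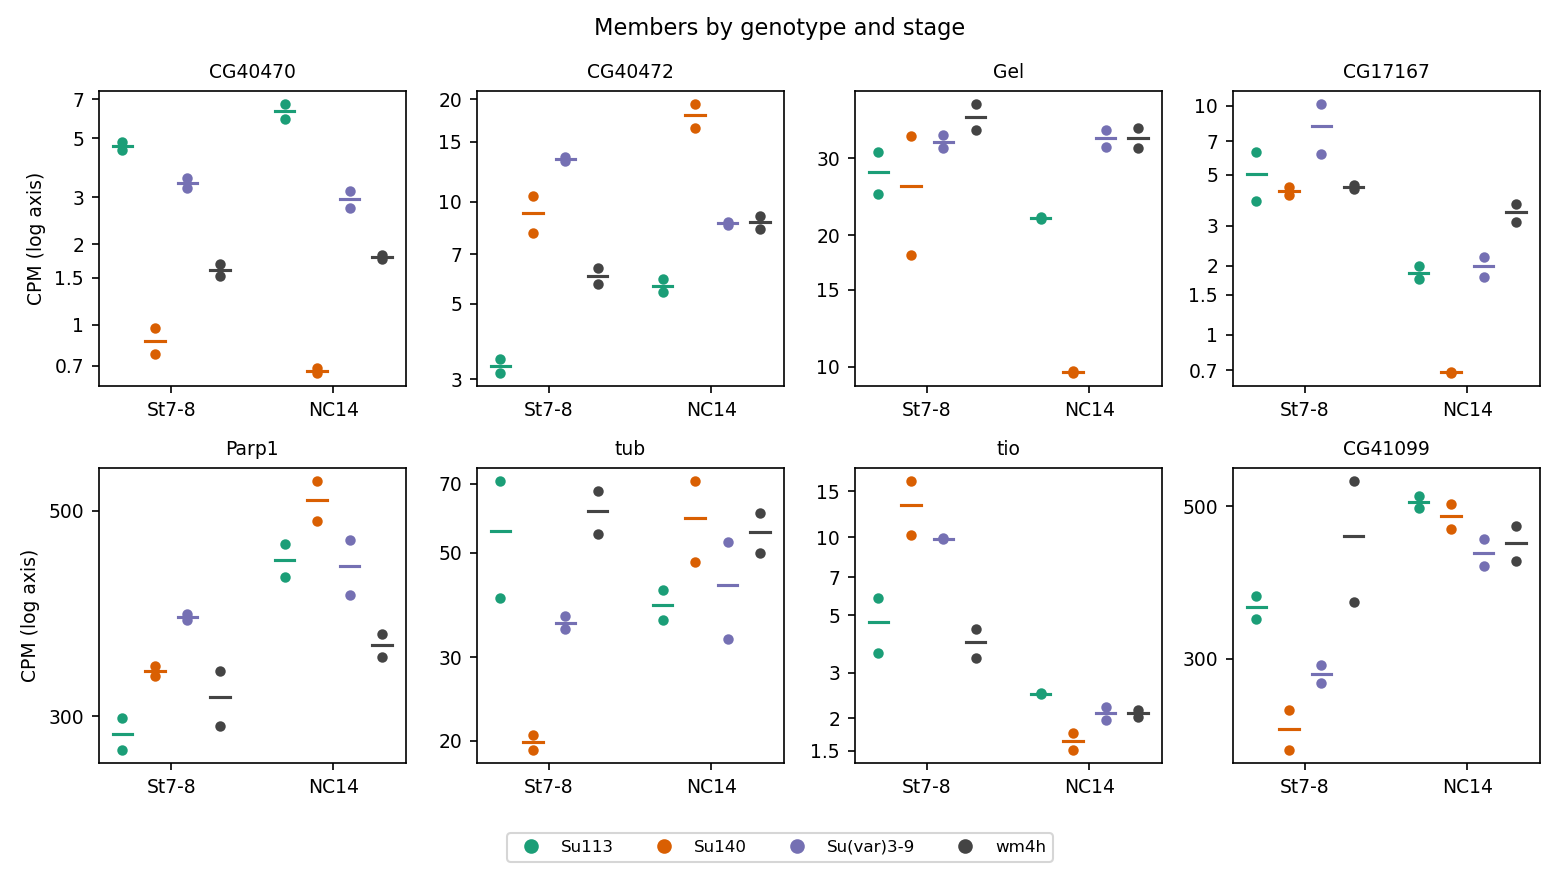
CPM (log axis) of 8 members in each library by stage and genotype. Points are libraries, bars are means of 2, and within a stage the mutants stand left of wm4h. CG40470 keeps the order Su113, Su(var)3-9, wm4h, Su140 at both stages.

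CG40470 kept the same order of the lines at both stages. At NC14 the CG40470 level was highest in Su113 (5.89 to 6.72 CPM), then Su(var)3-9 (2.74 to 3.18 CPM), wm4h (1.76 to 1.82 CPM) and Su140 (0.66 to 0.684 CPM). At St7-8 the order was the same, with 4.5 to 4.83 CPM in Su113, 3.26 to 3.54 CPM in Su(var)3-9, 1.52 to 1.68 CPM in wm4h and 0.772 to 0.969 CPM in Su140. No neighbours in these orders overlapped. Set directly against each other, Su113 exceeded Su140 by 3.23 ± 0.32 at NC14 (adjusted p = 0.00101) and by 2.42 ± 0.31 at St7-8 (adjusted p = 0.00394). CG40470 also fell in Su140 against wm4h at NC14 (-1.41 ± 0.31, adjusted p = 0.0174) and rose in Su(var)3-9 at St7-8 (1.09 ± 0.30, adjusted p = 0.0208). Both of these calls ended with any 1 library left out (adjusted p = 0.0543 to 0.136 and 0.0515 to 0.155).

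CG40472 stood lowest in Su113 at both stages, with 5.41 and 5.91 CPM at NC14 and 3.44 and 3.14 CPM at St7-8. Su113 was below Su140 by -1.66 ± 0.22 at NC14 (adjusted p = 0.00392) and by -1.49 ± 0.22 at St7-8 (adjusted p = 0.0059). In Su(var)3-9 at St7-8 it had 13.2 and 13.5 CPM, against 5.71 and 6.39 CPM in wm4h (1.14 ± 0.22, adjusted p = 0.00345), and this call held with each of the 4 libraries left out. Between the 2 genes lie other members on 3L, so they are not neighbours. The CG40470 span covers lncRNA:CR43941 on the same strand and lncRNA:CR43942 on the other.

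Between the Jasper alleles, 4 members were higher and 1 lower in Su113 at NC14, with 3.08% of all genes called, 2.36% higher and 0.726% lower. At St7-8, 4 were higher and 3 lower, with 2.4% of all genes called, 1.85% higher and 0.548% lower. Besides CG40470 and CG40472, those at NC14 were Cht10, a chitinase gene, with 110 and 69.6 CPM in Su113, against 6.09 and 14.1 CPM in Su140 (3.16 ± 0.47, adjusted p = 0.00935), Gel and CG12581. At St7-8 they were CG31601, CG17698, tub, tio and DhpD. For CG31601, at most 3 counts were found in a Su113 library, and it stood at 7.17 and 2.43 CPM in Su140, 245-fold lower in Su113 with a 95% counting interval of 83.6 to 1190. Cht10, CG12581, CG31601 and DhpD were chosen after their values were seen. Cht10 also had 118 and 55.2 CPM in Su113 at St7-8, against 17.8 and 34.5 CPM in Su140, where it was not called.

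In Su(var)3-9 at NC14, edgeR called 0 members, with 0.331% of all genes called, 0.145% higher and 0.186% lower. At an unadjusted p under 0.05 there were 33 members (16.8%), against 14.4% of all genes tested. DESeq2 called 17 of the 174 members to which it gave an adjusted p (9.77%), against 6.94% of all such genes. The median over the tested members was -0.18, against 0.00 over all genes tested. By arm, the medians were -0.23 on 2L, -0.24 on 3L, -0.03 on 3R and -0.42 on X. The X holds the 6 tested rRNA members, which had a median of -6.18. The pseudogenes among them had 3.9 to 66.4 CPM in wm4h replicate 1, while the rRNA gene pre-rRNA:CR45856 had 4.22 CPM there and 2.75 CPM in wm4h replicate 2. Without that library the median over the tested members was -0.13. In 70 of 196 members (35.7%) both Su(var)3-9 libraries lay below both control libraries, as in 22.0% of all genes tested, and in 33 (16.8%) both lay above, as in 23.7%. The later-zygotic scores of the 2 groups overlapped here (3.75 and 4.15 in Su(var)3-9, against 4 and 4.06 in wm4h).

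In Su(var)3-9 at St7-8, 10 members rose and 27 fell (37 of 196, 18.9%), against 24.8% of all genes tested, 8.94% higher and 15.9% lower. All 37 were protein-coding. The median over the tested members was -0.03, against 0.04 over all genes tested. The Su(var)3-9 pools had a higher later-zygotic score than the control (5.89 and 5.73 in Su(var)3-9, against 4.97 and 4.28 in wm4h). With that score in the fit, 2 members were called, dunk and l(1)G0196, against 0.984% of all genes. Without wm4h replicate 2, fewer of the members and fewer of all genes were called, and the medians were 0.03 and 0.04. The same held without the second St7-8 library of every genotype, where both medians were 0.03. Of the 37 calls 12 held with each of the 4 libraries left out, those of dunk, l(1)G0196, Vps11, Marf1, Slmap, nAChRalpha4, aux, CG40472, CG40006, CG14613, CG12567 and CG9795. The last 4 are named for this count alone, after their values were seen.

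The dunk gene (dm6, chr2L:22151623-22152640) had 5.99 and 5.36 CPM in Su(var)3-9, against 111 and 391 CPM in wm4h (-5.47 ± 0.54, adjusted p = 0.000211). The control libraries differed widely from each other, but both lay far above. The Su113 libraries, with 123 and 94.8 CPM, and the Su140 libraries, with 206 and 155 CPM, were also far above those of Su(var)3-9. The call held under all 11 alternatives run (-6.11 to -4.29 with 1 library left out). The dunk gene lies within CG42748 on the same strand, and CG42748 had 115 and 129 CPM in Su(var)3-9, against 140 and 187 CPM in wm4h.

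The l(1)G0196 gene (dm6, chrX:22487180-22508129, plus strand) encodes a kinase that makes inositol pyrophosphates. It had 58.1 and 58.1 CPM in Su(var)3-9, against 150 and 227 CPM in wm4h (-1.70 ± 0.18, adjusted p = 0.000294). It also held under all 11 alternatives. It overlaps Cp110 on the same strand, which had 41.8 and 43.3 CPM in Su(var)3-9, against 40.9 and 30.9 CPM in wm4h.

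Vps11 (dm6, chr3L:23147656-23150499, minus strand), like lt a subunit gene of the HOPS complex, had 49.5 and 34.2 CPM in Su(var)3-9, against 146 and 290 CPM in wm4h (-2.38 ± 0.29, adjusted p = 0.000421). Marf1 (dm6, chr2L:22308755-22368796, plus strand), a regulator of messenger RNA stability known from oogenesis, had 155 and 106 CPM in Su(var)3-9, against 502 and 817 CPM in wm4h (-2.34 ± 0.31, adjusted p = 0.000611). Slmap had 209 and 214 CPM in Su(var)3-9, against 364 and 580 CPM in wm4h (-1.16 ± 0.19, adjusted p = 0.00146). In each of the 3 genes the Su(var)3-9 libraries were the lowest of all 16. Each call held with every library left out in turn and ended only with the score in the fit (Vps11 -1.85, adjusted p = 0.0608, Marf1 -1.59, adjusted p = 0.0724, Slmap -0.83, adjusted p = 0.154).

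**Figure D4:**
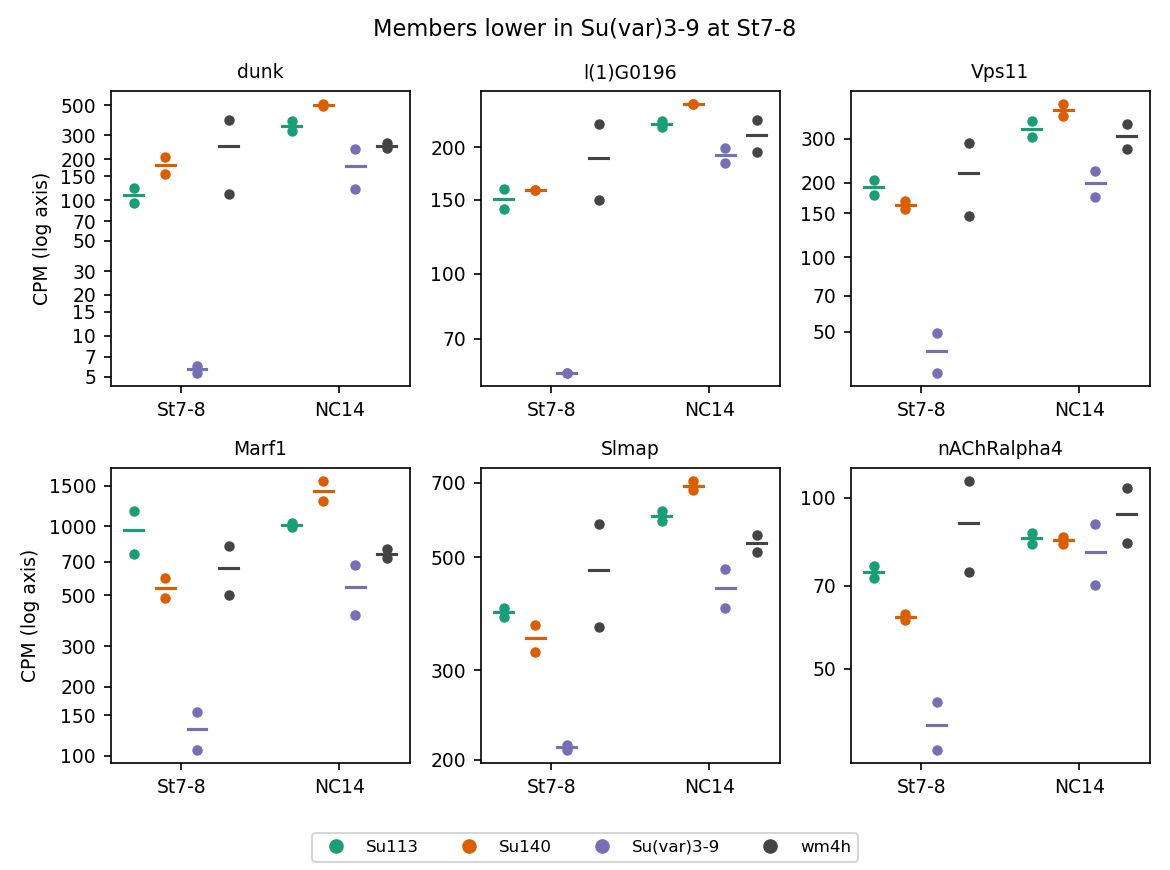
CPM (log axis) in each library of 6 members that were lower in Su(var)3-9 at St7-8. Points are libraries and bars are means of 2, with the mutants left of wm4h within a stage. The 2 Su(var)3-9 St7-8 libraries lie below all others in every panel.

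The role groups are small, and their counts stand against 24.8% of all genes called, 8.94% higher and 15.9% lower. The RNA and translation genes among the members gave 4 lower calls of 10, Marf1, Spf45, CycK and MED21, and 0 higher. CycK, a cyclin of the kinases that act on RNA polymerase II, had 118 and 121 CPM in Su(var)3-9, against 146 and 240 CPM in wm4h (-0.69 ± 0.22, adjusted p = 0.0369). MED21, a Mediator subunit gene, had 54.2 and 48 CPM in Su(var)3-9, against 67.3 and 118 CPM in wm4h (-0.86 ± 0.28, adjusted p = 0.0449). Membrane traffic genes gave 2 lower calls, Vps11 and aux, and 1 higher, Rab21, of 7. The aux gene encodes auxilin, which uncoats clathrin vesicles, and had 190 and 188 CPM in Su(var)3-9, against 285 and 419 CPM in wm4h (-0.90 ± 0.18, adjusted p = 0.00425). Rab21, a small GTPase gene of endosomes, had 7.8 and 7.27 CPM in Su(var)3-9, against 3.22 and 2.33 CPM in wm4h (1.44 ± 0.37, adjusted p = 0.0157). None of these 4 genes had overlapping groups. Over all genes tested, both Su(var)3-9 libraries lay above both control libraries in 33.9% and below them in 31.4%. CycK, MED21 and Rab21 were each lost without wm4h replicate 2 and without either Su(var)3-9 library.

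Of 9 mitochondrial genes 2 rose and 1 fell. Coa7, an assembly factor of cytochrome c oxidase, had 70.8 and 66.7 CPM in Su(var)3-9, against 43.3 and 26.8 CPM in wm4h (0.97 ± 0.26, adjusted p = 0.0186). Tim23 had 53.8 and 55.5 CPM in Su(var)3-9, against 36.8 and 22.6 CPM in wm4h (0.88 ± 0.29, adjusted p = 0.0425). Sfxn1-3, a sideroflexin gene, had 6.81 and 2.01 CPM in Su(var)3-9, against 18.1 and 30.4 CPM in wm4h (-2.46 ± 0.57, adjusted p = 0.00968). The groups were apart in all 3 genes. Of 9 neuron and synapse genes only nAChRalpha4, a nicotinic acetylcholine receptor subunit gene, was called. It had 43.7 and 35.9 CPM in Su(var)3-9, against 74 and 107 CPM in wm4h (-1.19 ± 0.20, adjusted p = 0.00182).

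Of the 4 chromatin and chromosome genes, Clamp, which encodes a zinc finger protein of dosage compensation, fell. It had 213 and 180 CPM in Su(var)3-9, against 240 and 384 CPM in wm4h (-0.67 ± 0.22, adjusted p = 0.0425, and -0.29, adjusted p = 0.448 without wm4h replicate 2). Of the 6 patterning and gastrulation genes, cta fell and tio rose. The cta gene encodes Concertina, the G protein alpha subunit through which Fog signals in apical constriction. It had 63.8 and 45.4 CPM in Su(var)3-9, against 84.9 and 169 CPM in wm4h (-1.22 ± 0.30, adjusted p = 0.0128). The tio gene had 9.91 and 9.82 CPM in Su(var)3-9, against 4.43 and 3.42 CPM in wm4h (1.33 ± 0.33, adjusted p = 0.0125). In these 3 genes the groups did not overlap, and neither cta (-0.64, adjusted p = 0.189) nor tio (1.15, adjusted p = 0.134) was called without wm4h replicate 2. The fog gene itself, which lies on X, had 131 and 128 CPM in Su(var)3-9, against 131 and 148 CPM in wm4h, and was not called. Sfxn1-3, CycK, MED21, Clamp and nAChRalpha4 were chosen after their values were seen, and so was CG15219, which had 0.283 and 0.296 CPM in Su(var)3-9 and 0 counts in both wm4h libraries, at least 7.17-fold higher against a floor of 3 counts per library.

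**Figure D5:**
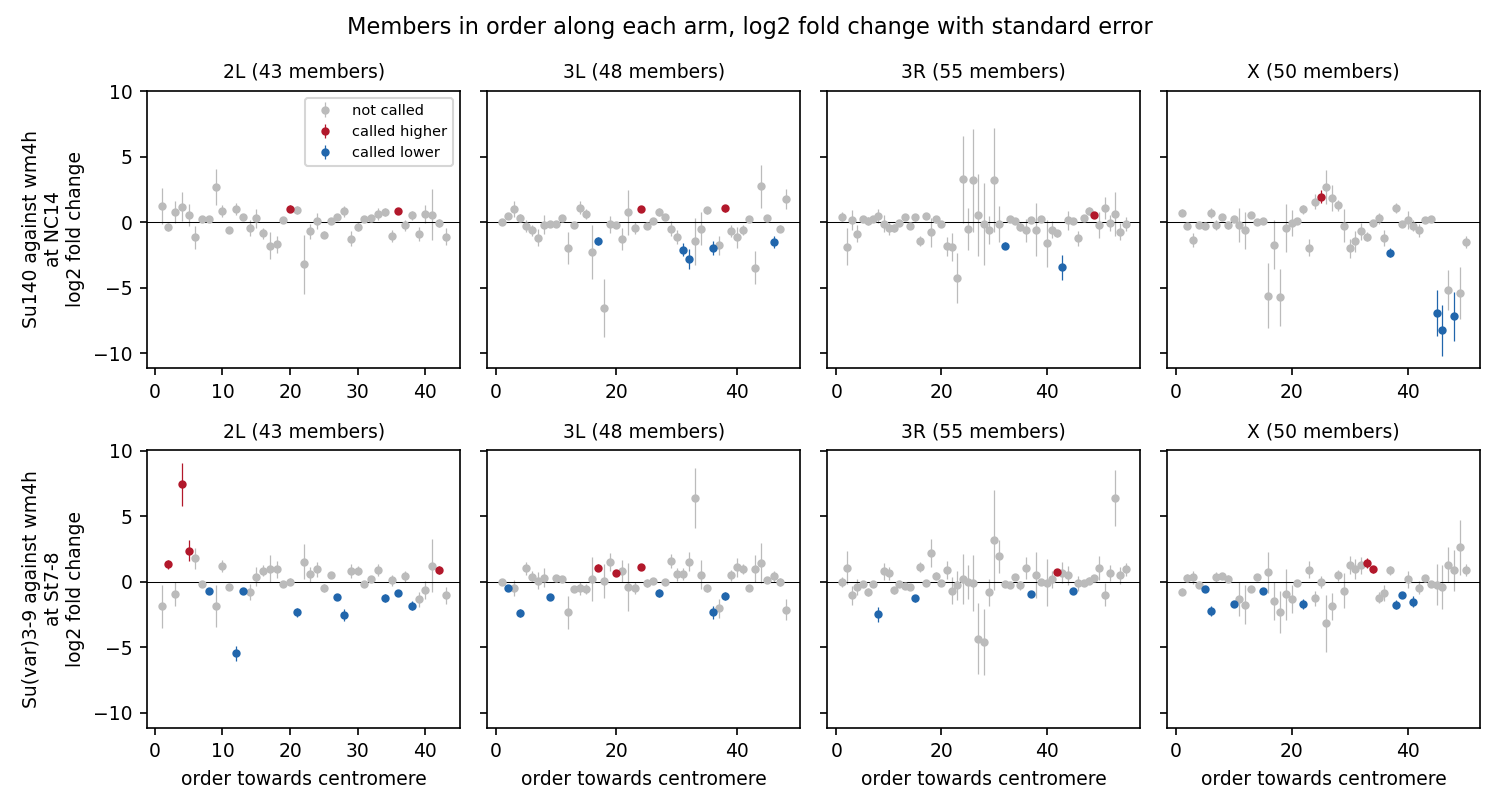
Fitted log2 fold change ± standard error of tested members, in their dm6 order from the outer limit towards the centromere of each arm, for Su140 at NC14 (top) and Su(var)3-9 at St7-8 (bottom). Calls in both directions are spread along the arms. The low points at the inner end of X in Su140 are the rRNA genes, and the highest point on 2L in Su(var)3-9 is CG15219, whose fitted value depends on the prior count.

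By arm, the calls in Su(var)3-9 at St7-8 numbered 13 of 43 on 2L, 9 of 48 on 3L, 5 of 55 on 3R and 10 of 50 on X. These were 30.2, 18.8, 9.09 and 20.0% of the members, against 24.3, 25.7, 23.5 and 27.3% of the other genes of the same arms. Members with annotated transposon sequence gave 3 higher and 13 lower calls of 61, and those without it gave 7 higher and 14 lower calls of 135, so 26.2% were called with and 15.6% without it, against 28.4% and 24.8% in the arms' other genes. For Su140 at NC14 these counts were 2 higher and 2 lower of 61 with transposon sequence, and 4 higher and 9 lower of 135 without. These were 6.56% and 9.63%, against 13.0% and 9.16% in the arms' other genes. Members over 20 kb in span gave 7 calls of 24 in Su(var)3-9 at St7-8 (29.2%), against 28.1% of the arms' other genes of that span. In Su140 at NC14 they gave 2 calls of 24 (8.33%), against 16.1%. The differences between these classes were not tested, and members without annotated transposon sequence may still hold some. CG40470, CG40472, CG41284 (chosen after its values were seen), Spf45 and CG40228 were called both in Su140 at NC14 and in Su(var)3-9 at St7-8. CG40472 was higher and CG41284 lower in both, while CG40470, Spf45 and CG40228 had opposite signs. The same overlap over all genes was not counted, so its size is not a result about the members.

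Among 19 tested genes of heterochromatin proteins elsewhere in the genome, 10 fell in Su(var)3-9 at St7-8 and 0 rose, with a median of -0.54, against 15.9% lower, 8.94% higher and a median of 0.04 over all genes tested. The later-zygotic score differed between these groups, as given above, and with it in the fit the calls over all genes numbered 122, against 3080 without it. The slope of the score in that fit rests on differences between replicates alone, so the part of staging in these calls was not tested. In the other 5 mutant comparisons 0 of the 19 were called.

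Within genotypes, St7-8 was set against NC14. In wm4h edgeR called 0 members and 0.0% of all genes in either direction. At an unadjusted p under 0.05 there were 18 members (9.18%), against 11.3% of all genes tested. DESeq2 called 12 of the 161 members to which it gave an adjusted p (7.45%), against 4.09% of all such genes. In Su113, 12 members rose and 22 fell, with 21.8% of all genes called, 12.1% higher and 9.67% lower. With DESeq2 size factors 15 rose and 10 fell. The second Su113 library of St7-8 had a later-zygotic score of 2.97, below both Su113 libraries of NC14 (3.34 and 3.22). By this score that pool was not later than NC14. Its part in the Su113 stage calls was not tested beyond leaving it out. In Su140, 19 rose and 40 fell, with 33.6% of all genes called, 17.6% higher and 16% lower. With DESeq2 size factors 23 rose and 30 fell. Between the Su(var)3-9 stages 10 rose and 21 fell, with 22.9% of all genes called, 10.0% higher and 12.8% lower. The medians over the tested members were -0.27 in Su113, -0.20 in Su140, 0.10 in Su(var)3-9 and -0.05 in wm4h, against -0.03, 0.07, 0.05 and 0.08 over all genes tested. With DESeq2 size factors the medians over all genes tested moved to 0.13 in Su113 and 0.19 in Su140, and those over the members to -0.11 and -0.08. The calls that held with each of the 4 libraries left out numbered 0 of 34 in Su113, 7 of 59 in Su140 and 9 of 31 in Su(var)3-9.

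Several members had lower levels at St7-8 in more than 1 genotype. The dunk level in Su(var)3-9 was 5.99 and 5.36 CPM at St7-8, against 237 and 120 CPM at NC14 (-4.98 ± 0.53, adjusted p = 0.000346). Lower dunk levels at St7-8 were also called in the Su113 line (-1.69 ± 0.46, adjusted p = 0.0272) and the Su140 line (-1.47, adjusted p = 0.0306), although both calls ended with either NC14 library left out. In wm4h it had 111 and 391 CPM at St7-8, against 264 and 240 CPM at NC14, and the groups overlapped. The hkb gene, a terminal gap gene, had 42.9 and 49.6 CPM at St7-8 in Su(var)3-9, against 94 and 104 CPM at NC14 (-1.10 ± 0.29, adjusted p = 0.0179). In Su113 hkb had 59.8 and 31.8 CPM at St7-8, against 116 and 109 CPM at NC14 (-1.30 ± 0.29, adjusted p = 0.014). The St7-8 libraries were the lower ones in both, and both calls ended with either NC14 library left out.

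The Parp1, Set1 and Dbp80 genes fell in both Jasper lines. Parp1 had 299 and 276 CPM at St7-8, against 461 and 424 CPM at NC14 in Su113 (-0.62 ± 0.12, adjusted p = 0.00904). In Su140 it had 340 and 332 CPM at St7-8, against 538 and 488 CPM at NC14 (-0.61 ± 0.12, adjusted p = 0.00762). Set1 had 235 and 221 CPM at St7-8, against 344 and 346 CPM at NC14 in Su113 (-0.60 ± 0.12, adjusted p = 0.00868). Groups were apart in each of these. All of these calls ended without NC14 replicate 1 of the line, that of Parp1 in Su113, for example, at -0.43 (adjusted p = 0.174).

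Higher at St7-8 were tio and CG17167. In Su140 tio had 10.2 and 16.4 CPM at St7-8, against 1.51 and 1.75 CPM at NC14 (3.03 ± 0.35, adjusted p = 0.00105). In Su(var)3-9 it had 9.91 and 9.82 CPM at St7-8, against 2.21 and 1.98 CPM at NC14 (2.23 ± 0.34, adjusted p = 0.00137). CG17167 in Su140 had 4.09 and 4.43 CPM at St7-8, against 0.684 and 0.686 CPM at NC14 (2.63 ± 0.37, adjusted p = 0.00172). These 3 calls held under all 10 alternatives run. Gel in Su140 had 18 and 33.8 CPM at St7-8, against 9.69 and 9.76 CPM at NC14 (1.41 ± 0.25, adjusted p = 0.0041). At St7-8 the 2 wm4h libraries had 34.8 and 40 CPM of Gel, and Su140 was not called against them.

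The summed level of the 6 cuticle and chitin genes among the members was high in all Su113 libraries and in 1 Su140 library. At NC14 it was 110 and 69.7 CPM in Su113, 6.32 and 14.5 CPM in Su140 and 17.5 and 19.5 CPM in Su(var)3-9, against 20 and 23.2 CPM in wm4h. At St7-8 it was 122 and 115 CPM in Su113, 20.2 and 242 CPM in Su140 and 29.7 and 36.1 CPM in Su(var)3-9, against 36.7 and 31.5 CPM in wm4h. Nearly all of the sum at NC14 in both Jasper lines was Cht10 alone, at the levels given above. Cht10 also had means of 86.6 CPM in Su113 and 29.5 CPM in wm4h at St7-8. TwdlF, a cuticle protein gene, had 0.0515 and 149 CPM in the 2 Su140 libraries of St7-8. Cda4, a chitin deacetylase gene, had at St7-8 1.93 and 40.1 CPM in Su140 and 2.25 and 29.4 CPM in Su113, against 1.83 and 0.119 CPM in wm4h. In both Jasper lines the second St7-8 library was the high one for Cda4. The part of these 2 libraries in the stage calls was not tested beyond leaving them out. TwdlF, chosen after its values were seen and called higher at St7-8 in Su140, changed sign without that library (-0.41, adjusted p = 0.958).

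The effects of each mutant at the 2 stages were compared directly, as the effect at NC14 minus that at St7-8. In Su113 and Su140 edgeR called 0 members, with 0.0887% of all genes called for Su113, 0.0% higher and 0.0887% lower, and 0.274% for Su140, 0.0323% higher and 0.242% lower. At an unadjusted p under 0.05 there were 27 members for Su113 (13.8%), against 17.8% of all genes tested, and 56 for Su140 (28.6%), against 27.4%. For Su(var)3-9 3 members were called, dunk, l(1)G0196 and Vps11, with 1.84% of all genes called, 1.74% higher and 0.0968% lower. In all 3 the level relative to wm4h was higher at NC14 than at St7-8. Vps11, for example, had 222 and 175 CPM in Su(var)3-9 at NC14, against 273 and 343 CPM in wm4h.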

How the data were processed

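Whole-number counts per gene were deposited by the authors as 1 table of 17753 genes and 16 libraries, without normalization. Per the submitters' processing notes, the build was dm6 and DESeq2 was among the tools. Which aligner and counter were used, with which strand setting and gene models, is not given in the sources used here. Symbols, coordinates, exon lengths and transposon annotation came from Ensembl release 115 on the same assembly, which matched 17626 identifiers and left 127 unmatched. The members and lists were chosen with earlier results of these data known, and the role groups after the members' names were seen.

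Genes were filtered by filterByExpr with the 8 groups (12398 tested, 5355 removed), scaled by TMM and fitted with 1 quasi-likelihood model of 8 group means in edgeR 4.0.16 (R 4.3.3, limma 3.58.1), with 8 residual degrees of freedom and a common biological coefficient of variation of 0.401. Tests were two-sided with Benjamini-Hochberg adjustment over all genes tested. CPM values are single libraries unless called means. Where a group had at most 3 counts in a library, a ratio of summed counts with an exact binomial interval of 95% is given, or a bound against 3 counts per library. The fit was first tried on simulated counts whose spread between libraries was set below that of these data, which does not show its error rate here. Alternatives were DESeq2 1.42.0, its size factors within edgeR, no filter, a replicate block, the later-zygotic score, a fit to the compared stage or genotype alone, each library left out, and, chosen after seeing the data, leaving out the second St7-8 library of every genotype. Figures were drawn with matplotlib 3.10.9 in python 3.11.15, and tables were made with scipy 1.17.1, numpy 2.4.6 and pandas 2.3.3.

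Members were named where they had the smallest adjusted p of a comparison at a mean of at least 2 CPM (up to 5 in each direction), were called in both Jasper alleles, were on the list of 20 known heterochromatic genes, were among the 5 highest per kb or lay at the limits. Others named are marked as chosen after their values were seen, or are listed under their role group. Promoter sequences were not analysed here.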

Additional observations from a re-analysis of the deposited data

Results flagged for a closer look

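For 3 members the effect of Su(var)3-9 differed between the stages by a test of the difference itself (edgeR, adjusted over all genes tested). The log2 effect at NC14 minus that at St7-8 was 4.97 ± 0.67 for dunk (adjusted p = 0.00866), 1.54 ± 0.25 for l(1)G0196 (adjusted p = 0.0138) and 1.75 ± 0.40 for Vps11 (adjusted p = 0.0496). The later-zygotic score of the Su(var)3-9 pools was 5.89 and 5.73, against 4.97 and 4.28 in wm4h, at St7-8, and that of the same line was 3.75 and 4.15, against 4 and 4.06 in wm4h, at NC14. Its part in these differences was not tested. These contrasts were fitted in the main model alone, so no alternative was run for them.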

How the results depend on the processing

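In the order Su113, Su140 and Su(var)3-9 against wm4h, the main counts were 1, 17 and 0 at NC14 and 3, 4 and 37 at St7-8. DESeq2, with its own filter, gave 14, 43 and 17 at NC14 and 13, 11 and 56 at St7-8. Over all genes it called 774, 2529 and 757 at NC14 and 1390, 1002 and 4241 at St7-8. Among the 196 members tested by edgeR, the DESeq2 calls split into 19 higher and 23 lower in Su140 at NC14, 7 higher and 4 lower in Su140 at St7-8, and 22 higher and 34 lower in Su(var)3-9 at St7-8. Adding the score to the fit gave 2, 0 and 1 at NC14 and 0, 0 and 2 at St7-8. Over all genes tested, the score changed the calls to 145, 9 and 132 at NC14, against 116, 1185 and 41 without it, and to 15, 73 and 122 at St7-8, against 353, 143 and 3080 without it. A fit to the compared stage alone gave 3, 43 and 2 at NC14 and 0, 0 and 14 at St7-8, and a fit without the second St7-8 libraries, chosen after seeing the data, gave 3, 40 and 1 at NC14 and 0, 0 and 8 at St7-8. Over all genes, the fit to the compared stage alone called 339, 2480 and 295 at NC14 and 2, 0 and 1387 at St7-8. The fit without the second St7-8 libraries called 305, 2306 and 254 of all genes at NC14, and fewer than the main fit at St7-8. With DESeq2 size factors in edgeR, Su113 at NC14 had 2 calls of members and 136 over all genes. Between the stages the main counts were 34 in Su113, 59 in Su140, 31 in Su(var)3-9 and 0 in wm4h. DESeq2 gave 12 in wm4h, the fit to the genotype alone 6 in Su113, and the fit without the second St7-8 libraries 15 in Su113, 33 in Su140 and 3 in wm4h. The cause of these changes was not tested.

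With 1 library left out, the counts ranged over 0 to 8, 0 to 11 and 0 to 9 at NC14 and 0 to 15, 0 to 4 and 12 to 47 at St7-8, in the same order, and over 0 to 42, 10 to 30, 10 to 17 and 0 to 9 between the stages in Su113, Su140, Su(var)3-9 and wm4h. These fits assume that the lone library of a group varies like the other groups. The numbers of calls over all genes shifted between these fits as well. Of all 186 calls of members in the 10 comparisons, 28 held with each library left out, 18 held under every alternative run and 3 changed sign. Direct contrasts between the Jasper alleles, and between the effects at the 2 stages, were fitted in the main model alone and are not among the 186. The sign changed for lncRNA:CR45180 in Su140 at NC14 with the score (0.33), for 28SrRNA-Psi:CR45855 there without wm4h NC14 replicate 1 (0.46, within a range of -8.1 to 0.46 over the left-out libraries), and for TwdlF between the Su140 stages without Su140 St7-8 replicate 2 (-0.41, within -0.41 to 11.28) and without the second St7-8 libraries (-0.33).

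The labels do not say that replicate numbers mark a shared batch. The correlation of same-numbered deviations ran from -0.5 (Su140 and wm4h at St7-8) to 0.33 (Su113 and Su140 at St7-8) over pairs of groups. This range does not settle whether the numbers mark a batch, and the main fit did not pair the samples. With the replicate number as a block, 1 member was called in Su113 at St7-8, 2 in Su140 at St7-8 and 22 between the Su113 stages. Over all genes these were 230, 81 and 1933. The other counts of members stayed within 1.5 times the main counts under the block, and all did without the low-count filter. With 2 libraries a group, a difference that missed the threshold is not shown to be absent.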
